A study of Mus musculus with 16 samples.

Results

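The data are ATAC-Seq peak lists of 8 mouse tissues in the fed and the fasting state, and the report concerns the promoters and gene bodies of 7 genes of cholesterol synthesis and its control: Hmgcs1, Idi1, Fdft1, Sqle, Lss, Srebf2 and Insig1. They were taken by name from 21884 protein-coding genes of GENCODE vM21. ATAC-Seq inserts adapters with a transposase into DNA that is not packed in nucleosomes, so a peak marks accessible chromatin. The tissues were kidney, liver, spleen, lung, heart, muscle and the brown and white adipose depots, and each gave 1 fed and 1 fasting library, 16 in all, from male C57BL/6 mice. Fed animals ate freely and fasting animals had no food for a day, and the tissue powder of several adult animals was pooled for each library. The tissues of a state came from the same animals. There are no replicates, so a fed and a fasting library of 1 tissue can only be set side by side. Tests run over the 8 tissues, and their p-values speak for these pools.

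Cholesterol is built from acetyl-CoA through mevalonate, isoprenoid units, squalene and lanosterol. When sterols in the endoplasmic reticulum are low, SCAP escorts the SREBP transcription factors to the Golgi, where they are cut and released to the nucleus to activate genes of synthesis and uptake. INSIG proteins hold SCAP back when sterols are high. SREBPs bind sterol regulatory elements and act with NF-Y, which binds CCAAT boxes, and Sp1, which binds GC boxes. Every cell can make cholesterol, and the liver is a major site of its synthesis and export.

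A promoter peak is a peak whose summit, the position of highest signal, lies within 3000 bp of any annotated start of the gene. Its percentile is the rank of its −log10 p among all summits of its own library, where 100 is the strongest. The lists hold 298996 to 299529 summits each, so the percentiles rest on lists of nearly equal length although the depth differed: the expected number of tags at a position without enrichment ran from 2.80 in fed liver to 12.8 in fed brown adipose. Marker genes of 7 tissues had their highest mean promoter percentile in their own tissue, while the white adipose markers stood at 88.8 in white and 92.0 in brown adipose. The heart markers reached only 52.4 in heart, with Myl7 as low as 13.9, and no marker lacked a peak in its own tissue. In these bulk pools, a change in the mix of cell types cannot be told apart from a change within cells.

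The promoters are shown first, because all 7 were accessible everywhere and their sequence is what the ranks refer to. The stretches below are the parts of the 300 bp around each gene's strongest summit that lie outside annotated exons, in GRCm38 and on the + strand, which is the coding strand of these 5 genes. Capitals mark CCAAT boxes (CCAAT, or its complement read backwards, ATTGG) and GC boxes (GGGCGG or CCGCCC). Hmgcs1 is chr13:119690223-119690378, Sqle chr15:59314890-59315076, Lss chr10:76531361-76531587, Srebf2 chr15:82147019-82147180 and Insig1 chr5:28071106-28071362.
Hmgcs1: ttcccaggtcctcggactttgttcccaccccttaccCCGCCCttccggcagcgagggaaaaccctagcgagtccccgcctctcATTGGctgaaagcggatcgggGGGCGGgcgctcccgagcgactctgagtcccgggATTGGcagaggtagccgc
Sqle: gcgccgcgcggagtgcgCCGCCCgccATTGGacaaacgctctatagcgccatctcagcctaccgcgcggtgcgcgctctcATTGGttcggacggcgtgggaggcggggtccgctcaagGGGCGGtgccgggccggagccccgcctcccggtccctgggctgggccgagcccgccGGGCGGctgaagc
Lss: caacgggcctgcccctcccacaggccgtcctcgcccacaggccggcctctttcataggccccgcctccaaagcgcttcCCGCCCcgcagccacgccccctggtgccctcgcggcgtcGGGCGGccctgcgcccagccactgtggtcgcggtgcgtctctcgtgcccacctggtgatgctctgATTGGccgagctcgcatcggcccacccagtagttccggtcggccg
Srebf2: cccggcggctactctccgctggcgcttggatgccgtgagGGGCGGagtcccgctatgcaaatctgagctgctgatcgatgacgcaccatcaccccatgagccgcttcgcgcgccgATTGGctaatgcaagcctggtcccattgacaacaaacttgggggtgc
Insig1: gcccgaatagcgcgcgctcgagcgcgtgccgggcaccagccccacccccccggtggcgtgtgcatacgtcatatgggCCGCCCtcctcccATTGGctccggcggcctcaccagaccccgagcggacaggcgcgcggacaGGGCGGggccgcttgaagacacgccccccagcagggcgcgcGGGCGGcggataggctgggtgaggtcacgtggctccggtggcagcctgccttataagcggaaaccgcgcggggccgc
The windows of Idi1 and Fdft1 are not printed, since 253 and 300 of their 300 bases fall in annotated exons of longer transcripts or of a neighbour.

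All 7 windows held both a CCAAT box and a GC box. A CCAAT box was present in 34.6% and a GC box in 52.2% of the windows of 19669 protein-coding genes with a promoter peak, and both were present in 18.2%. Among the 13439 genes with a promoter peak in all 16 libraries these shares were 35.3%, 68.0% and 24.3%. Idi1 and Fdft1 had 3 CCAAT boxes each, Hmgcs1 and Sqle 2, and Lss, Srebf2 and Insig1 1. The boxes lay between 18 bp (Hmgcs1) and 265 bp (Fdft1) upstream of the nearest annotated start. Of the 27 other genes of the pathway that were compared, 19 windows held a CCAAT box, 20 a GC box and 14 both. The letters TCACNCCAC, a strict form of the sterol regulatory element, and TCACGTGA, a strict form of the E-box, were searched on both strands. They matched none of the 7 windows and none of the 27, and were found in 1.18% and 1.17% of all windows. The shorter letters CACGTG, which the printed Insig1 stretch holds, were not searched. No searched motif contains another, and a missing match says only that these letters are not in the window. GC content ran from 61.7% in Idi1 to 76.3% in Insig1. Its median was 60.7% over all genes and 64.0% over the 13439 genes with a promoter peak in all 16 libraries.

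For each of the 7 genes, the strongest promoter peaks of the 16 libraries overlapped one another, so that the values of a gene refer to 1 place. Every one of the 7 promoters had a peak with q below 0.01 in all 16 libraries, which held for 59.8% of protein-coding genes. The lowest of the 112 values was percentile 92.6 and the highest 99.8. The median over the 7 genes of the mean percentile was 98.0, beside 95.7 for genes with a promoter peak in all 16 libraries and 90.4 for genes with one in any. All 7 remained open in all 16 libraries when every deposited peak was counted, at q below 1e-06, with summits limited to 1000 bp from a start, and after thinning to equal depth.

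**Figure D1:**
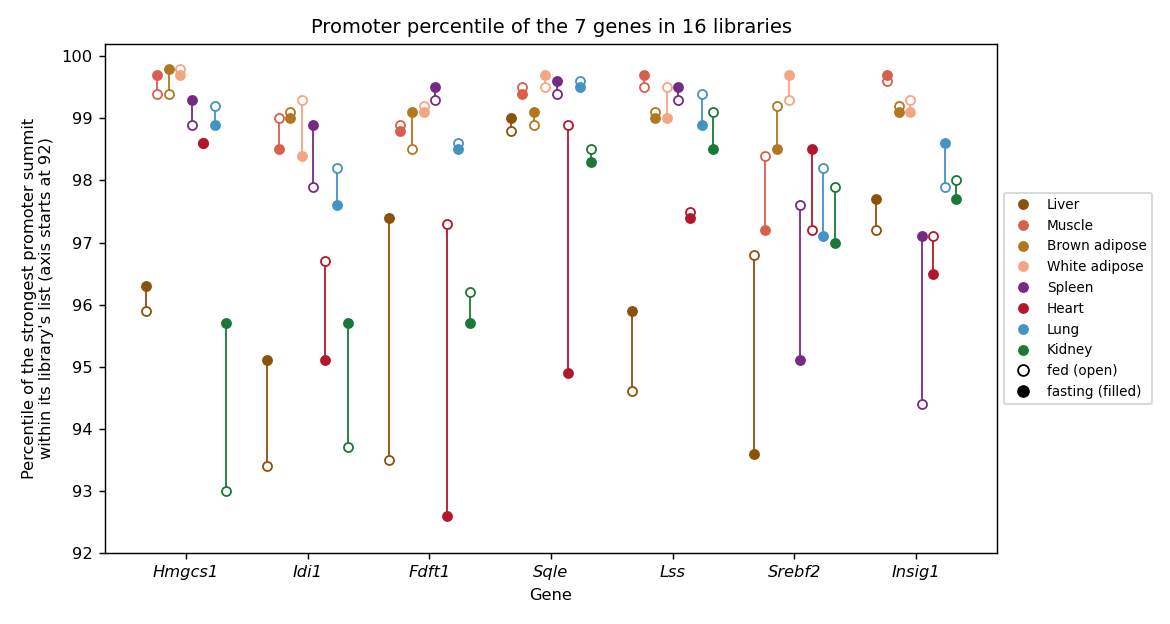
Percentile of the strongest promoter summit (y axis, starting at 92) of each of the 7 genes (x axis) in 8 tissues, with an open circle for the fed and a filled circle for the fasting library, joined by a line. Values run from 92.6 to 99.8, adipose and muscle libraries sit mostly above 98, and the lowest points belong to heart, liver, kidney and spleen.

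Hmgcs1 encodes the cytosolic synthase that makes HMG-CoA, the entry into the mevalonate pathway (ENSMUSG00000093930.2, chr13:119690379-119708260, + strand). Its promoter percentile ran from 93.0 in fed kidney through a median of 99.1 to 99.8 in fasting brown adipose. The fed value followed by the fasting value was 93.0 and 95.7 in kidney, 95.9 and 96.3 in liver, 98.6 in both heart libraries, 99.2 and 98.9 in lung, 98.9 and 99.3 in spleen, and 99.4 and 99.7 in muscle. Brown adipose had 99.4 and 99.8, and white adipose 99.8 and 99.7. Liver and kidney stood below every other library, and each was apart from its neighbour in the order. The 3 highest tissues, white adipose, brown adipose and muscle, each overlapped the next.

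Idi1 encodes the isomerase that interconverts the 2 isoprenoid building blocks (ENSMUSG00000058258.14, chr13:8885501-8892451, + strand). Its percentile ran from 93.4 in fed liver through a median of 98.0 to 99.3 in fed white adipose. Heart, kidney and liver, with tissue means of 95.9, 94.7 and 94.3, each overlapped the next and lay below all libraries of the other 5 tissues, whose means were 97.9 to 99.0. The start of Gm48574, a transcript model of unsettled type, lies 120 bp from a start of Idi1, and the 2 cannot be told apart here.

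Fdft1 encodes squalene synthase, the first enzyme committed to sterols (ENSMUSG00000021273.10, chr14:63145150-63179578, − strand). Its percentile ran from 92.6 in fasting heart through a median of 98.6 to 99.5 in fasting spleen. Spleen was highest, with 99.3 fed and 99.5 fasting, and did not overlap white adipose, the next tissue, with 99.2 and 99.1. Heart had 97.3 fed and 92.6 fasting, liver 93.5 fed and 97.4 fasting, and kidney 96.2 and 95.7, so that these 3 overlapped one another below the rest.

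Sqle encodes squalene epoxidase, a rate-limiting step of the squalene branch (ENSMUSG00000022351.14, chr15:59315077-59331192, + strand). Its promoter had the highest mean percentile of the 7, 98.9, and 15 of its 16 values lay between 98.3 and 99.7. The remaining one, fasting heart, was 94.9, beside 98.9 in fed heart. White adipose, lung, spleen and muscle, with means from 99.6 down to 99.4, each overlapped the next in the order.

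Lss encodes lanosterol synthase, which closes the sterol rings (ENSMUSG00000033105.12, chr10:76531588-76557138, + strand). Its percentile ran from 94.6 in fed liver through a median of 99.1 to 99.7 in fasting muscle. Liver, with 94.6 and 95.9, lay below heart, with 97.5 and 97.4, and heart below all other libraries, which held 98.5 or more. Muscle, with 99.5 fed and 99.7 fasting, was highest.

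Srebf2 encodes SREBP-2, the factor that drives the synthesis genes (ENSMUSG00000022463.8, chr15:82147181-82205379, + strand). Its percentile ran from 93.6 in fasting liver through a median of 97.7 to 99.7 in fasting white adipose. White adipose, with 99.3 and 99.7, stood apart from brown adipose, with 99.2 and 98.5, and the 6 other neighbouring pairs of tissues in the order all overlapped. Liver had 96.8 fed and 93.6 fasting, and spleen 97.6 fed and 95.1 fasting.

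Insig1 encodes one of the proteins that retain SCAP and damp the pathway (ENSMUSG00000045294.11, chr5:28071363-28078662, + strand). Its percentile ran from 94.4 in fed spleen through a median of 97.9 to 99.7 in fasting muscle. Muscle, with 99.6 and 99.7, was apart from white adipose, with 99.3 and 99.1, and brown adipose followed with 99.2 and 99.1. Spleen, with 94.4 fed and 97.1 fasting, was lowest and overlapped heart, with 97.1 and 96.5. The start of the lincRNA Gm26608 lies 258 bp from that of Insig1, so the peak may serve either gene.

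Tissue order was shared only in part. White adipose was among the 2 highest tissues for 6 of the 7 genes and liver among the 2 lowest for 5, while heart was among the 2 lowest for 4 and kidney for 3. How often each tissue ranked so over all promoters was not counted, so these numbers are no result about the 7 genes. On the scale of summit height, the number of tags at the summit over the library's background, the highest tissue exceeded the lowest by 1.57-fold (Srebf2) to 2.15-fold (Fdft1) once each library was centred on the median of the 13439 promoters. The median spread was 0.87 log2 units for the 7 genes and 0.92 for the 13439. Spleen had the highest tissue mean in height for Idi1, Fdft1, Sqle and Lss, white adipose for Hmgcs1 and Srebf2, and muscle for Insig1.

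Whether a promoter differed between tissues was tested by asking if the fed and the fasting library of a tissue were nearer to each other than libraries of different tissues. The exact permutation test ran over all possible pairings of fed with fasting libraries, one-sided, with Benjamini-Hochberg adjustment over 19669 genes. It called 5 of the 7 genes, and 48.1% of all genes, at an adjusted p below 0.05. For Hmgcs1, the 2 libraries of a tissue differed by 0.563 percentile points on average, beside 1.89 over all pairings, with an adjusted permutation p of 0.0108. Insig1 had 0.617 beside 1.48, with an adjusted permutation p of 0.0140. Lss had 0.424 beside 1.39, with an adjusted permutation p of 0.0186. Sqle (0.0269) and Idi1 (0.0362) also passed in the exact permutation test, and Fdft1 (0.121) and Srebf2 (0.156) did not. Hmgcs1 and Insig1 kept the call when any 1 tissue was left out. Idi1 lost it without any tissue but spleen. Sqle lost it without liver, brown adipose, spleen or kidney, and Lss without liver or heart. Fdft1 gained a call without liver or heart and Srebf2 without heart, so between 3 and 5 of the 7 were called, while the share of all genes called fell to between 29.4% and 39.8%.

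Fasting was compared with feeding on the centred log2 summit height. No gene of the 7 passed the exact sign-flip permutation test over 8 tissues, two-sided, at an unadjusted p below 0.05. Over the 13439 promoters, 3.38% (454) passed with a higher and 3.37% (453) with a lower value in fasting, and the smallest p that 8 tissues allow is 0.00781. After adjustment over all promoters, 0 passed. The mean differences of the 7 genes ran from -0.16 (Srebf2) to 0.05 (Insig1) log2 units.

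Srebf2 was the member nearest to the threshold. Its fasting minus fed difference was -0.44 in spleen, -0.34 in liver, -0.30 in muscle, -0.25 in lung, -0.22 in kidney and -0.06 in brown adipose, and it was 0.13 in heart and 0.17 in white adipose. It was thus lower in fasting in 6 of 8 tissues, by 0.16 ± 0.22 (SD, n = 8 tissues), with an exact sign-flip permutation p of 0.0859. Without white adipose, or without heart, the only tissues with a higher value in fasting, the exact sign-flip p was 0.0469. Leaving out a tissue that goes against the others favours a lower p, so this is no further support. Without any 1 of the other 6 tissues, the exact sign-flip p was 0.109 to 0.172. With all 8 tissues, p adjusted over all promoters was 0.755 in the same permutation test.

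The other 6 genes had mean differences small beside their spread over tissues. Hmgcs1 gave 0.04 ± 0.14 log2 units (SD, n = 8), higher in 5 tissues, with an exact permutation p of 0.422. Insig1 gave 0.05 ± 0.14 (exact permutation p = 0.406, n = 8) and Lss -0.04 ± 0.12 (p = 0.320). Idi1 gave -0.04 ± 0.20 (exact permutation p = 0.555, n = 8) and Fdft1 0.00 ± 0.27 (p = 0.984). Sqle gave -0.13 ± 0.28 (exact permutation p = 0.188, n = 8), and most of that came from 1 tissue: without heart its mean was -0.0352.

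**Figure D2:**
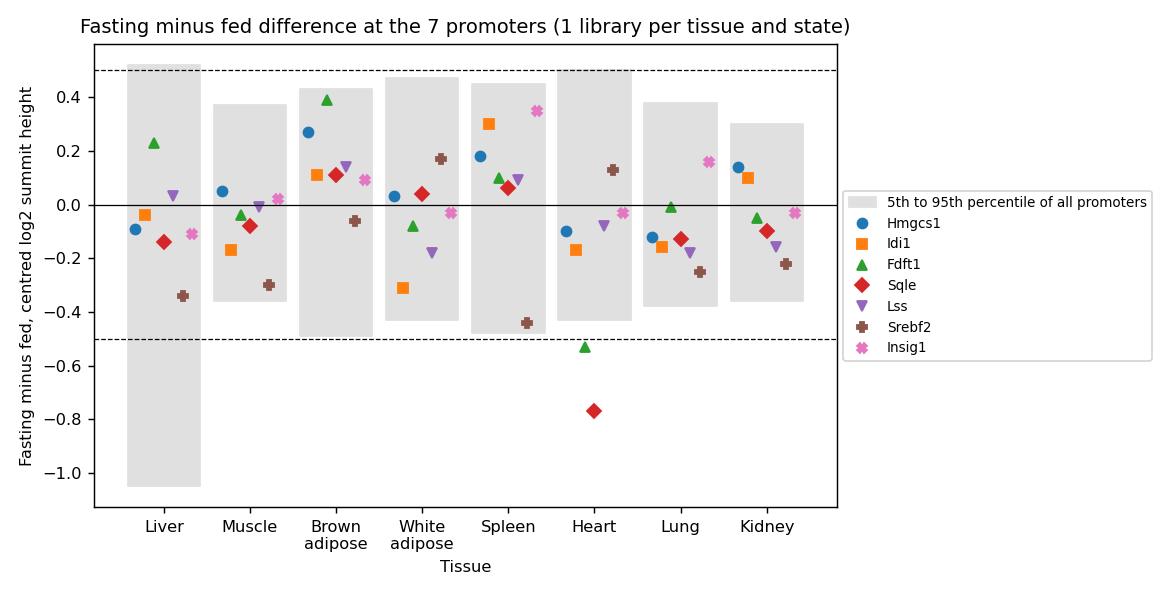
Fasting minus fed difference in centred log2 summit height (y axis) of the 7 genes in each tissue (x axis), 1 library per state, with a grey band from the 5th to the 95th percentile of all 13439 promoters and dashed lines at 0.5 in either direction. Only Sqle, at -0.77, and Fdft1, at -0.53, lie past a dashed line, both in heart.

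With 1 library per group, a promoter was counted as different within a tissue where the 2 states differed by at least 0.5 log2 units. This held for 2 of 56 gene and tissue pairs, both lower in fasting heart. Over all promoters, 3.46% of such pairs were higher and 5.25% lower in fasting, so the count did not stand above the background. Sqle had a centred log2 height of 0.42 in fed and -0.35 in fasting heart, a difference of -0.77 or 0.585-fold. Fdft1 had 0.05 and -0.48, a difference of -0.53 or 0.692-fold. The summits behind them held 107 fed and 61 fasting tags for Sqle, and 83 and 56 for Fdft1. The exact 95% intervals from these counts, which cover counting error only and take the background as known, were -1.25 to -0.31 for Sqle and -1.05 to -0.02 for Fdft1. The 5 other genes differed by -0.17 to 0.13 in heart. Of all promoters, 3.07% were lower and 5.01% higher in fasting heart by this measure. The heart libraries had the lowest median promoter height over background of the 8 tissues, 16.3 fed and 13.4 fasting, and their markers ranked low (above), and the part of either in the 2 differences was not tested.

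In the other 7 tissues none of the 7 genes passed this size in either direction. The share of all promoters that did, higher and lower in fasting, was 5.68% and 19.2% in liver, 1.23% and 2.05% in kidney, 1.97% and 2.50% in lung, 3.54% and 4.54% in spleen and 2.63% and 2.33% in muscle. It was 4.44% and 3.68% for the white and 3.15% and 4.64% for the brown adipose pair. A count of 0 of 7 is read against these shares and is no result about the 7 genes. The differences closest to it were Srebf2 in spleen, at -0.44, Fdft1 in brown adipose, at 0.39, and Insig1 in spleen, at 0.35. In liver, where the fed library had a median promoter height of 18.2 and the fasting library of 35.1, the 7 genes ran from -0.34 (Srebf2) to 0.23 (Fdft1) after centring.

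The 7 genes were set beside 27 other genes of the pathway: 16 enzymes of synthesis, 5 regulators, and 6 genes of uptake and handling. All 27 had a promoter peak with q below 0.01 in all 16 libraries. The highest mean percentile was that of Npc2, a lysosomal cholesterol carrier, at 99.7, and the lowest that of Pmvk, phosphomevalonate kinase, at 84.8. The median of the mean percentiles was 97.3, beside 98.0 for the 7. The pairing test called 15 of 27, with 8 of 16 enzymes, 2 of 5 regulators and 5 of 6 uptake genes, beside the 48.1% of all genes called. The widest of those called were Mvk, mevalonate kinase, whose tissue means spread over 12.5 points between kidney and muscle, and Lrp1, an endocytic receptor, whose means spread over 10.5 points between spleen and liver. The strongest summit of Lrp1 in fed spleen lay near a start at the other end of the gene, so its spread is not that of 1 promoter. Other coding genes start close to Npc2 (Isca2, 99 bp) and Mvk (Mmab, 209 bp), so those peaks may serve either gene. For 6 of the 27 genes (Pmvk, Tm7sf2, Srebf1, Scap, Scarb1 and Lrp1) the strongest peaks of the 2 states did not overlap in at least 1 tissue, which made 9 of 216 gene and tissue pairs (7.21% of such pairs over all promoters) and 0 of 56 for the 7 genes.

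In the sign-flip test, 2 of the 27 passed the unadjusted threshold, both lower in fasting, beside 3.37% of all promoters lower and 3.38% higher, and both had an adjusted permutation p of 0.695. Srebf1, which encodes SREBP-1, was lower in 7 of 8 tissues, with a mean difference of -0.22 (exact permutation p = 0.0469, n = 8). In heart and brown adipose its 2 states had their strongest summits at different places. In the 6 other tissues it was lower in 6 of 6, by 0.32 ± 0.12 (SD), with an exact permutation p of 0.0312, the smallest that 6 tissues allow. Brown adipose, left out here, was the only tissue with a higher value in fasting, at 0.31. Only genes already past the threshold were tested again, on the same values, so this second p is no further support. Mbtps1, which encodes the first of the proteases that release SREBPs, was lower in 6 of 8, with a mean of -0.09 (exact permutation p = 0.0469, n = 8). Mean differences were below 0 in 19 of the 27 and in 4 of the 7, beside 51.7% of all promoters. Of 216 gene and tissue pairs, 1 was higher by 0.5 or more (Mbtps2 in spleen, 0.72) and 6 lower, beside 3.46% and 5.25% of such pairs over all promoters, so neither count stood above the background. With pairs of non-overlapping peaks left out, 1 was higher and 4 lower, beside 2.95% and 4.46%. The 2 in heart, Cyp51 (-0.52) and Hsd17b7 (-0.68), both encode enzymes that act after Lss. The others were Mylip (-0.58) in liver and Srebf1 (-0.52) in spleen, and, between different peaks of a gene and thus not a change at 1 promoter, Pmvk in liver and Lrp1 in spleen. The genes of these 7 pairs were named after their values were seen. A start of the coding gene Yy2 lies 20 bp from one of Mbtps2, and the 2 cannot be told apart here.

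**Figure D3:**
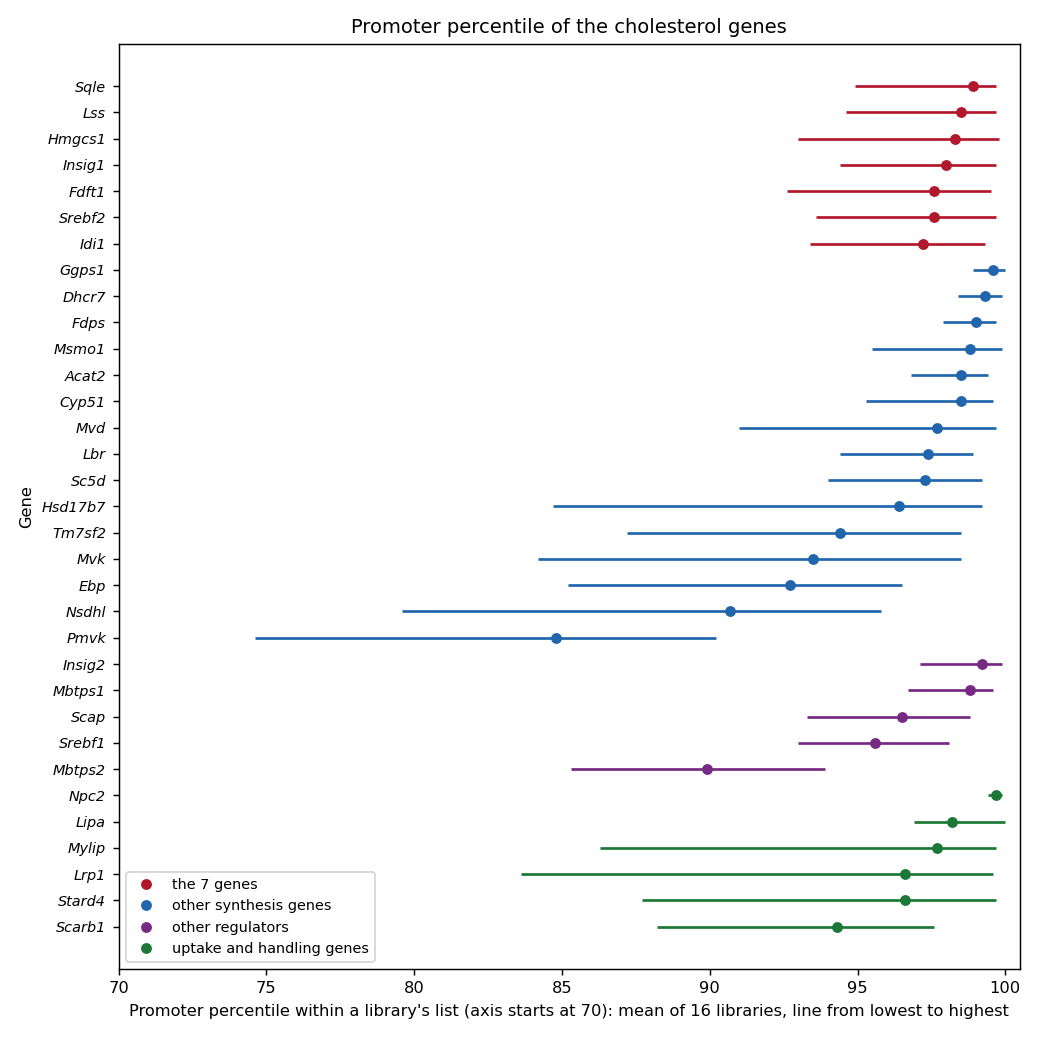
Promoter percentile of the 7 genes and of the other pathway genes drawn (y axis, by role), as the mean of 16 libraries (dot) with a line from the lowest to the highest library (x axis, starting at 70). The means of the 7 genes lie between 97.2 and 98.9, those of the others between 84.8 and 99.7.

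Across the 16 libraries, the centred height profiles of Hmgcs1, Idi1, Fdft1 and Lss resembled each other, with Pearson's r from 0.772 (Hmgcs1 and Lss) to 0.938 (Hmgcs1 and Idi1). Sqle had 0.721 with Fdft1, 0.539 with Lss, 0.468 with Idi1 and 0.348 with Hmgcs1. Srebf2 reached at most 0.445 with another of the 7 and Insig1 at most 0.534. The 16 points share tissues, animals and the centring, so the values are descriptions. Among 13438 other promoters, the 2 nearest were Cdkn3 (0.979) and Chd6 (0.971) to Hmgcs1, Med30 (0.957) and Gm45062 (0.953) to Idi1, Rrbp1 (0.958) and Tgfbr1 (0.952) to Fdft1, and Zfp78 (0.884) and Cinp (0.883) to Sqle. They were Ppfia1 (0.963) and Mterf2 (0.950) for Lss, Nabp2 and Rnf41 (both 0.852) for Srebf2, and Aars (0.951) and Gm10644 (0.924) for Insig1. None of the 14 is a gene of the pathway list.

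Beyond the promoters, peaks with q below 0.01 in each gene body extended by 10 kb were merged over the 16 libraries into 196 regions. Srebf2, the longest gene, had 53, Fdft1 46, Hmgcs1 30, Lss 23, Sqle 22, Insig1 18 and Idi1 4. By their strongest summit, 131 lay in introns, 22 in untranslated regions, 11 in coding exons, 9 in other exons and 23 between genes. Of the 196, 10 (5.10%) were found in all 16 libraries, beside 3.07% of all merged regions of the series, and 83 (42.3%) in 1 library only, beside 50.1%. Each window holds a promoter that was open in every library, which raises the first share and lowers the second. The number per library ran from 26 in fasting heart to 61 in fed spleen. Over the genome these 2 libraries held 141888 and 202948 regions with q below 0.01, so the range is not one of these genes alone. Since each list was cut to a fixed number of summits, a region can be missing from a list because other summits were stronger.

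**Figure D4:**
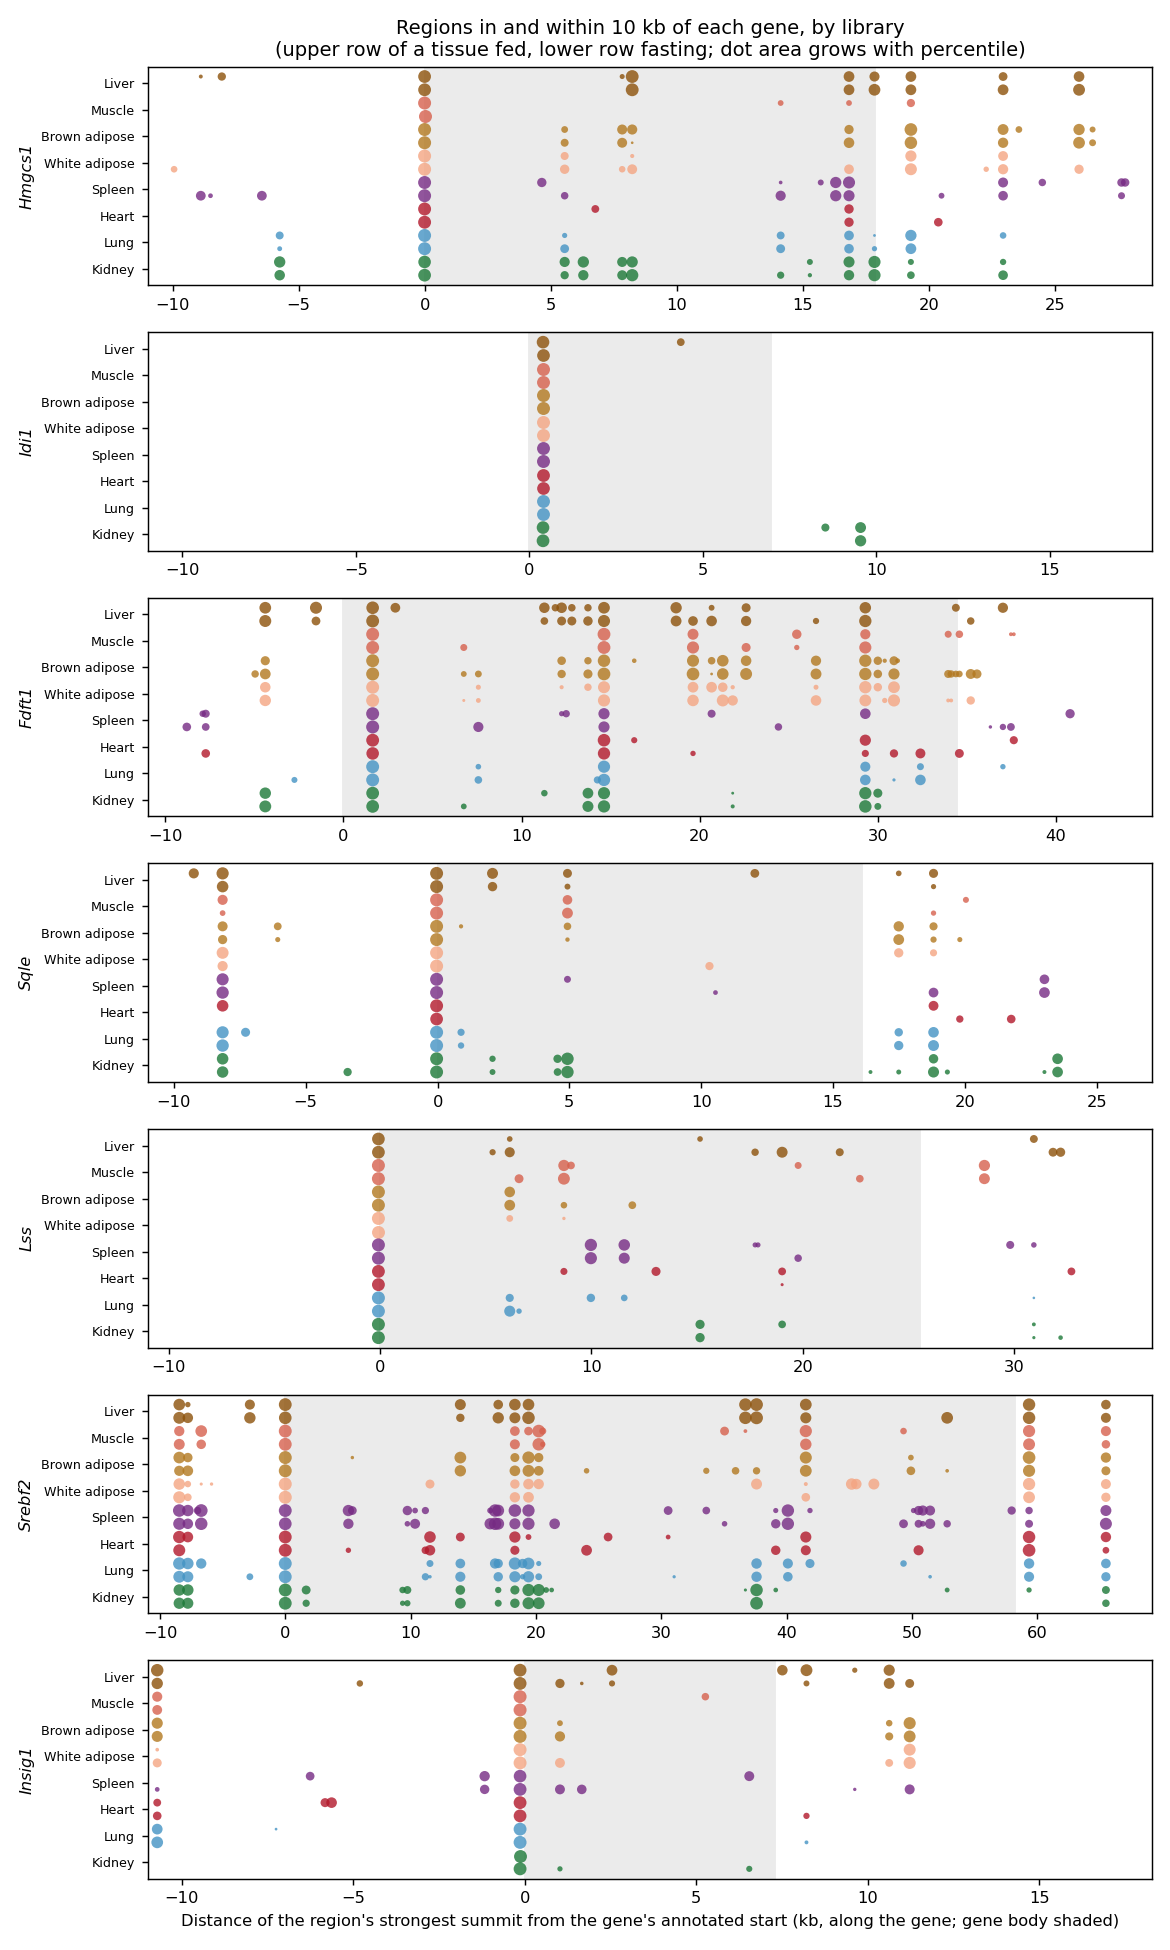
Regions of each gene (1 panel a gene) by distance of the strongest summit from the annotated start (x axis, kb along the gene, gene body shaded) and library (y axis, upper row of a tissue fed and lower row fasting), where dot area grows with percentile. The promoter forms a full column in every panel, while 146 of the 196 regions lie outside the promoter window and 10 are found in all 16 libraries.

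The 10 regions found everywhere were the 7 promoters and 3 others. One was a second promoter of Fdft1, 88 bp from an internal annotated start and 14630 bp inside the gene (chr14:63164007-63165193). Its percentile ran from 72.3 in fasting spleen to 97.3 in fasting muscle, with a mean of 87.3. Spleen, highest of all tissues at the main Fdft1 promoter, was lowest at the internal one, with 73.4 fed and 72.3 fasting. Muscle had 97.1 and 97.3 there, and heart 92.7 and 88.9.

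The other 2 belong to Srebf2. An intronic region 18314 bp inside the gene (chr15:82165391-82165754) ran from 46.0 in fed brown adipose to 92.8 in fed spleen, where fasting gave 70.9. A region 8472 bp upstream, in an intron of the neighbour Ccdc134 (chr15:82138450-82138984), was the strongest outside the promoters, with a mean of 79.4 and a range from 60.1 in fed muscle to 93.0 in fed spleen.

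The strongest region outside the promoter window of each other gene was weaker or more restricted. The means given are over all 16 libraries, where a library without a peak counts as 0. For Fdft1 it was intronic (chr14:63149735-63151019), with a mean of 70.7, found in all libraries but fasting spleen. For Sqle it lay 8154 bp upstream, 25 bp from the start of the pseudogene Zfp572 (chr15:59306380-59307138), with a mean of 67.1, and it was missing only in fasting heart, against 78.3 in fed heart. For Hmgcs1 it lay in an untranslated region (chr13:119707018-119707317), with a mean of 50.8, and it was found in 14 libraries. For Insig1 it lay upstream in an intron of Gm26608 (chr5:28060296-28061542), with a mean of 44.1. Its highest values were 91.3 in fed liver, 80.0 in fasting lung and 75.2 in fasting liver, with 72.4 and 70.7 in fed and fasting brown adipose. That region straddles the 10 kb limit, its strongest summit lies 10719 bp upstream, and a summit with q below 0.01 fell inside the limit in 3 libraries. The next, 3′ of Insig1 (chr5:28082317-28082969), had a mean of 27.5, with 86.0 and 81.9 in fed and fasting brown adipose and 84.1 and 86.1 in white adipose, below 60 or absent elsewhere. For Lss (chr10:76537141-76538022, intronic) the mean was 21.1, and for Idi1 the region described next was the strongest.

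In all, 22 of the 196 regions (11.2%) were found in both states of 1 tissue with no deposited peak in any other, beside 10.4% of all merged regions. Kidney had 7, spleen 6, liver and muscle 3 each, brown adipose 2, lung 1, and white adipose and heart 0. Kidney's share of the 22, 31.8%, stood beside 26.2% of all such regions in the series, and spleen's 27.3% beside 18.8%. Liver's 13.6% stood beside 13.6%, muscle's 13.6% beside 16.4%, brown adipose's 9.09% beside 6.65% and lung's 4.55% beside 11.4%. White adipose and heart, with 0, held only 3.79% and 3.09% of such regions in the series. The kidney regions included 1 downstream of Idi1 (chr13:8894196-8895381, 68.7 fed and 74.1 fasting), 1 in an Hmgcs1 intron (chr13:119696557-119696969, 74.7 and 61.3) and 1 downstream of Sqle in an intron of Washc5 (chr15:59338481-59338733, 65.6 and 66.0). The other 4, of Hmgcs1, Sqle and Srebf2 (2), stayed below 45.

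Of the 6 spleen regions, 1 in the untranslated part of Hmgcs1 (chr13:119706582-119706807) was alike in both states, with 73.9 and 73.8. Another lay upstream of Insig1 (chr5:28070159-28070232, 61.5 and 50.5), and 3 lay in Srebf2 introns, the strongest with 17.8 fed and 75.4 fasting (chr15:82163358-82163675). The 3 liver regions were all of Fdft1, led by 1 located 1543 bp upstream (chr14:63181006-63181192, 85.1 fed and 43.5 fasting) and 1 in an intron (chr14:63160806-63161054) with 75.2 and 67.8. The muscle regions lay in introns of Fdft1 and Srebf2 and downstream of Lss (chr10:76560085-76560364, 73.4 and 69.1). Brown adipose had 1 each of Hmgcs1 and Srebf2 and lung 1 of Srebf2, none above 49.9.

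Regions shared by a few tissues were among the strongest, and 2 are shown for their rank in liver, picked after their values were seen. An Hmgcs1 intron 8234 bp inside the gene had percentile 96.9 in fed and 97.2 in fasting liver, above the 95.9 and 96.3 of the Hmgcs1 promoter in the same libraries. It had 73.2 and 88.4 in kidney, 59.2 and 0.314 in brown adipose, 6.36 and 55.8 in white adipose, and no peak in muscle, spleen, heart or lung. A Srebf2 intron 37602 bp inside the gene had 95.4 and 96.1 in liver, 91.5 and 94.7 in kidney and 63.3 and 61.9 in lung. It was found once in each adipose tissue, at 69.8 in fed white and 29.2 in fasting brown adipose, and in no library of muscle, spleen or heart. Its strongest summit lies 733 bp from a start of another annotated gene, Gm49502. The 300 bases around their summits in fasting liver, on the + strand (chr13:119698463-119698762 and chr15:82184633-82184932), hold none of the 4 motifs and so have no capitals. The GC content of the Hmgcs1 stretch, 42.7%, is below that of the 7 promoters.
Hmgcs1 intron: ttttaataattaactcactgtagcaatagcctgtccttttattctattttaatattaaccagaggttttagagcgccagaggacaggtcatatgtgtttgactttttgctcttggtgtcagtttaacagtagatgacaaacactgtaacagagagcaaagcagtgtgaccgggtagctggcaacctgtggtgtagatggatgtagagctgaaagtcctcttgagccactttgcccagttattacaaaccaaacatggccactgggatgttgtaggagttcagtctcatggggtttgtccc
Srebf2 intron: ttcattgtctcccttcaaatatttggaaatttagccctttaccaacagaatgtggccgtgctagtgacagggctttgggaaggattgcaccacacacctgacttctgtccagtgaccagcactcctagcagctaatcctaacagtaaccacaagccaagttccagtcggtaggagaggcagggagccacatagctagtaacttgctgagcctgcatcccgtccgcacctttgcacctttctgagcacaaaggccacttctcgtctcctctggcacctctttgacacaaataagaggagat

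Other regions picked in the same way had their highest values in muscle, kidney, spleen or brown adipose. A Srebf2 intron (chr15:82167218-82167620) had 94.5 and 91.2 in fed and fasting muscle and 85.1 and 81.3 in kidney. A Sqle intron (chr15:59319784-59320162) had 90.9 and 89.6 in kidney and 67.9 or less elsewhere. A region 6719 bp upstream of Srebf2 in Ccdc134 (chr15:82140306-82140766) had 95.8 and 91.4 in spleen, 79.7 and 51.5 in muscle, and 61.5 or less elsewhere. An Fdft1 intron (chr14:63159535-63160522) had 85.6 and 94.3 in brown adipose, 69.8 and 86.3 in muscle and 66.5 and 77.4 in white adipose, and 53.4 or less elsewhere.

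Between states, 87 of 466 region and tissue pairs (18.7%) were found in fasting with no deposited peak in the fed library, and 102 (21.9%) in fed only. The pairs include those of the promoters, which were open in every library and cannot be found in 1 state only, and this lowers both shares. The shares over all merged regions were 23.5% and 24.9%. Spleen had the most pairs found in 1 state, 22 in fasting only and 25 in fed only, and brown adipose had 8 and 6. The spleen lists also held the most regions with q below 0.01, 202948 fed and 225899 fasting, against 149835 and 131688 in brown adipose. Shares by tissue over all regions were not counted, so the order of the tissues is no result about the 7 genes. Regions found in fasting only in 3 or more tissues numbered 2 of 196, beside 0.834% of all regions, and in fed only 1, beside 0.781%.

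The Insig1 intron 1024 bp inside the gene (chr5:28072349-28072568) was found in fasting only in 4 tissues, at percentile 48.9 in liver, 56.0 in white adipose, 56.4 in spleen and 12.9 in kidney. In brown adipose it was found in both states, at 16.8 fed and 60.1 fasting, and it was absent from muscle, heart and lung. The Fdft1 region lay in an untranslated part of the neighbour Ctsb (chr14:63144173-63144448), found in fasting only in liver (30.4), brown adipose (56.6) and white adipose (39.0). The Lss region, found in fed only in liver (34.5), spleen (14.8) and lung (0.138), was weak throughout. With 1 library per state, none of these can be set against replicate error.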

How the data were processed

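Tissue powder of several male C57BL/6 mice was pooled per tissue and state and gave 1 ATAC-Seq library each. The authors aligned the reads to GRCm38 with Bowtie2 and called peaks per library with MACS2, as named in the submitters' processing notes and the study's methods, with no versions given in the sources used here. The deposited lists, cut by the authors to a fixed number of summits, give the fold enrichment at each summit (a ratio to the expected signal) and its −log10 p-value and −log10 q-value. Each summit counted as its own entry.

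From fold and −log10 p, the summit tags and the expected tags were solved, and at least 98.3% of summits per library came out whole within 0.001. Height is summit tags over the library's lowest common expected number, on a log2 scale with no pseudocount, centred per library on the median of the 13439 promoters with a peak in all 16 lists. A promoter is each summit within 3000 bp of any GENCODE vM21 start, and the strongest by −log10 p was used. Genes sharing a symbol were left out. Regions needed q below 0.01 and were merged where they overlapped by 1 bp.

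The 7 genes, the pathway list, the markers and the tests were chosen with earlier results of these data known. The rule for other names took the pathway genes with the highest and lowest mean percentile, the 3 widest called, those past the sign-flip threshold, the 2 nearest profiles per gene, and per gene the strongest region outside the promoter and each region private to 1 tissue. A gene that this rule would name is not reported here and is left out of the plot of the pathway. Alternatives were other peak thresholds, windows, measures, pseudocounts, centring and depths, and each tissue left out. Leaving out each tissue for the within-tissue counts, and pairs of non-overlapping peaks for the pathway list, was added after seeing the data. The tests were run in Python 3.11.15 with SciPy 1.17.1 and pysam 0.24.0 and tested on simulated data. Intervals cover counting error only.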

Additional observations from a re-analysis of the deposited data

Results flagged for a closer look

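Sqle in heart was picked out because its fasting minus fed difference in centred log2 height, -0.77, lay far from the other 7 tissues, which ran from -0.14 to 0.11. The gap to the nearest tissue was 0.718 of the whole range, above the 95% limit of Dixon's test for 8 values. Chance alone picks out about 1 in 20 such groups, and 7 genes were examined. The difference rests on 1 fed and 1 fasting library and was not tested against replicate error.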

How the results depend on the processing

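The count of 7 genes open everywhere was the same under all 4 alternatives. The number called as differing between tissues, 5, was 2 with the percentile of fold enrichment (Hmgcs1 and Insig1), 6 with centred height or with ranks among promoters, 5 within 1000 bp, and 3 to 5 with 1 tissue left out (3 without liver, brown adipose or kidney). The share of all genes called, 48.1%, moved in the same order to 36.4%, 68.1%, 55.8%, 47.7% and 29.4% to 39.8%. The number with a shared fasting difference, 0, was 1 with the percentile of fold enrichment (Hmgcs1, higher in fasting, exact sign-flip p = 0.0234, n = 8) and 0 to 1 with 1 tissue left out (Srebf2 without white adipose or heart). The 2 gene and tissue pairs past 0.5 became 19 without centring (7 higher and 12 lower in fasting), 3 after thinning and 0 to 2 with 1 tissue left out, 0 being the count without heart. Centring takes 1 value per library off every gene, so leaving it out shifts the mean differences of all genes by the same amount. With that shift, the means of Hmgcs1 (-0.04), Fdft1 (-0.08) and Insig1 (-0.03) came out below 0, which is no change particular to these genes. The 196 regions became 103 at q below 1e-06, 122 without the extension, 134 after thinning and 218 with all deposited peaks. Counting precision differs between libraries: the 7 summits in fed liver held 43 to 92 tags, against 736 to 1052 in fed brown adipose.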
